A study of Homo sapiens with 8 samples.

Results

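The genes described here are 10 putative targets of miR-629-3p, namely LBH, PTP4A1, RAP2A, NDC1, STMN1, LRRC58, IPO5, INPP5A, FBXO32 and ZNF710, read probe by probe across 4 transfections. They are a named subset of a longer list that the study selected on the miR-629-3p and NC arrays by a limit on the fold change (a log2 difference of 0.81) and a p under 0.05, joined with target prediction algorithms. Every gene probe of the array whose gene name is one of the 10 was taken, which gave 18 probes of 58201 and 10 gene names of 43317. The values behind that choice are those of miR-629-3p against NC, so for the members every comparison with a miR-629-3p or NC array is given below as a description, without a test.

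SAS cells, a human tongue squamous cell carcinoma line, were transfected with 1 of 4 RNAs, which were mimics of miR-629-3p, of miR-210-3p and of miR-874-3p, and a negative control (NC). By the labels RNA was extracted 48 h later, and each Agilent whole-transcriptome array received 100 ng of it, labelled with 1 dye. The RNAs were transfected at 25 nM. Each of the 4 groups holds 2 arrays, and all 8 come from 1 cell line kept in medium with puromycin, so the only labelled difference between groups is the transfected RNA. The arrays do not measure the transfected RNAs themselves. Row 1 of the slide held the 4 arrays of miR-210-3p and miR-629-3p, and row 2 held those of NC and miR-874-3p. Slide row and transfection cannot be told apart between any group of row 1 and any group of row 2. That covers miR-629-3p and miR-210-3p, each against NC and against miR-874-3p. Between 24338 and 28994 of the 58201 gene probes were well above background on an array, with the higher numbers in the miR-629-3p group, and no spot was saturated. Probes of 6 of 6 squamous epithelial markers (KRT5, KRT14, KRT6A, KRT17, TP63 and SFN) were well above background on all 8 arrays. Of the markers of other cell types, PTPRC (leukocytes), CDH5 and VWF (endothelium) were also well above background on all 8, while COL1A2 and DCN (fibroblasts) were so on 0 arrays.

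A microRNA guides the silencing complex to a messenger RNA by pairing through its seed, bases 2 to 8 from the 5′ end, mostly with sites in the untranslated 3′ part of the message. Pairing usually lowers translation and shortens the life of the message, so a target's RNA level can fall after a mimic is transfected. An expression array reads such a change only as total message at the place where each probe binds, and a gene with several probes is read at several places. Messages that end at different polyadenylation sites, or that are spliced differently, can therefore give different readings at probes of one gene.

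The 3 transfected microRNAs are shown because their seeds differ from one another. The mature sequences are those of RefSeq (GRCh38.p14), and capitals mark the seed.

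hsa-miR-629-3p: gUUCUCCCaacguaagcccagc

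hsa-miR-210-3p: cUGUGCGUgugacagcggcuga

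hsa-miR-874-3p: cUGCCCUGgcccgagggaccga

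The complement of the miR-629-3p seed, GGGAGAA, was searched on the message strand of every probe, the strand that the probe letters of the array files hold. It stood in 435 of 58201 probes (0.747%) and in 2 of the 18 member probes, 1 of NDC1 and 1 of INPP5A. In both it was followed by an A, as GGGAGAAA, which 149 probes of the array hold (0.256%). The shorter complement GGAGAA, which is contained in GGGAGAA, stood in 2095 probes (3.6%) and in 3 member probes, the added one being the other probe of INPP5A, where it occurs at 2 adjacent places. The 7-base complements for miR-210-3p (ACGCACA, in 0.131% of probes) and miR-874-3p (CAGGGCA, in 0.387%), and the 6-base ones (CGCACA, in 0.335%, and AGGGCA, in 1.46%), stood in 0 of the 18. A probe covers only a small stretch of its message, and seed matches were part of the predictions that chose the genes, so these matches are a description of the probes. The stretches around the matches are shown because their probes are described below. Each is written 5′ to 3′ on the message strand with capitals for the match, with coordinates on hg19 from the annotation of the array.

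NDC1 probe A_23_P73982, chr1:54233480-54233509, minus strand: tatactttaatGGGAGAAatcatggaaaga

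INPP5A probe A_24_P26897, chr10:134596478-134596507, plus strand: aataatatcatGGGAGAAatagaaatagcc

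INPP5A probe A_33_P3374190, chr10:134511375-134511404, plus strand: cacgcccatgctGGAGAAGGAGAAgtttcc

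Testing was limited to the 27303 probes with no missing value and with both arrays of some group well above background. All 10 genes had at least 1 such probe, and 15 of the 18 member probes passed, 14 of them well above background on all 8 arrays. The 3 probes that did not pass were LBH A_33_P3364263 and STMN1 A_19_P00320972, each well above background on 1 array of NC, and STMN1 A_24_P342511, well above background on 0 arrays. All levels below are log2 signals relative to the 75th percentile of gene probes on the same array, and a log2 difference of -1 is a level lowered to 50% of the comparator. Levels of different probes are not comparable, since probes bind with different strength.

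With miR-629-3p, all 15 probes that passed were lower than with NC on both arrays, as in 29.5% of all probes tested. Their median log2 difference was -1.18, with a range from -1.58 to -0.55 (LBH A_33_P3364268, described below, at its measured value), beside a median of 0.03 over all probes tested. A level lower by at least 0.81, the study's limit on the log2 scale, was seen in 12 of the 15, beside 3.2% of all probes. LBH A_33_P3364268 is among the 12 at its measured value. The PTP4A1 probe A_23_P81770, at -0.92, lay just inside that limit. The 3 probes outside it were INPP5A A_33_P3374190 at -0.67, PTP4A1 A_24_P252043 at -0.59 and IPO5 A_24_P99071 at -0.55, and each of these genes has another probe inside it. These counts follow from the choice of the genes. With normexp background correction the median became -0.79 and the count past the limit became 7. The dimmest signal well above background was -3.74 and -3.59 on the miR-629-3p arrays, against -2.84 and -2.82 on the NC arrays. The low end of the scale thus lay lower with miR-629-3p, and its part in the differences of dim probes was not tested. Flooring at the dimmest detected signal gave a median of -1.16 and a count of 12.

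**Figure D1:**
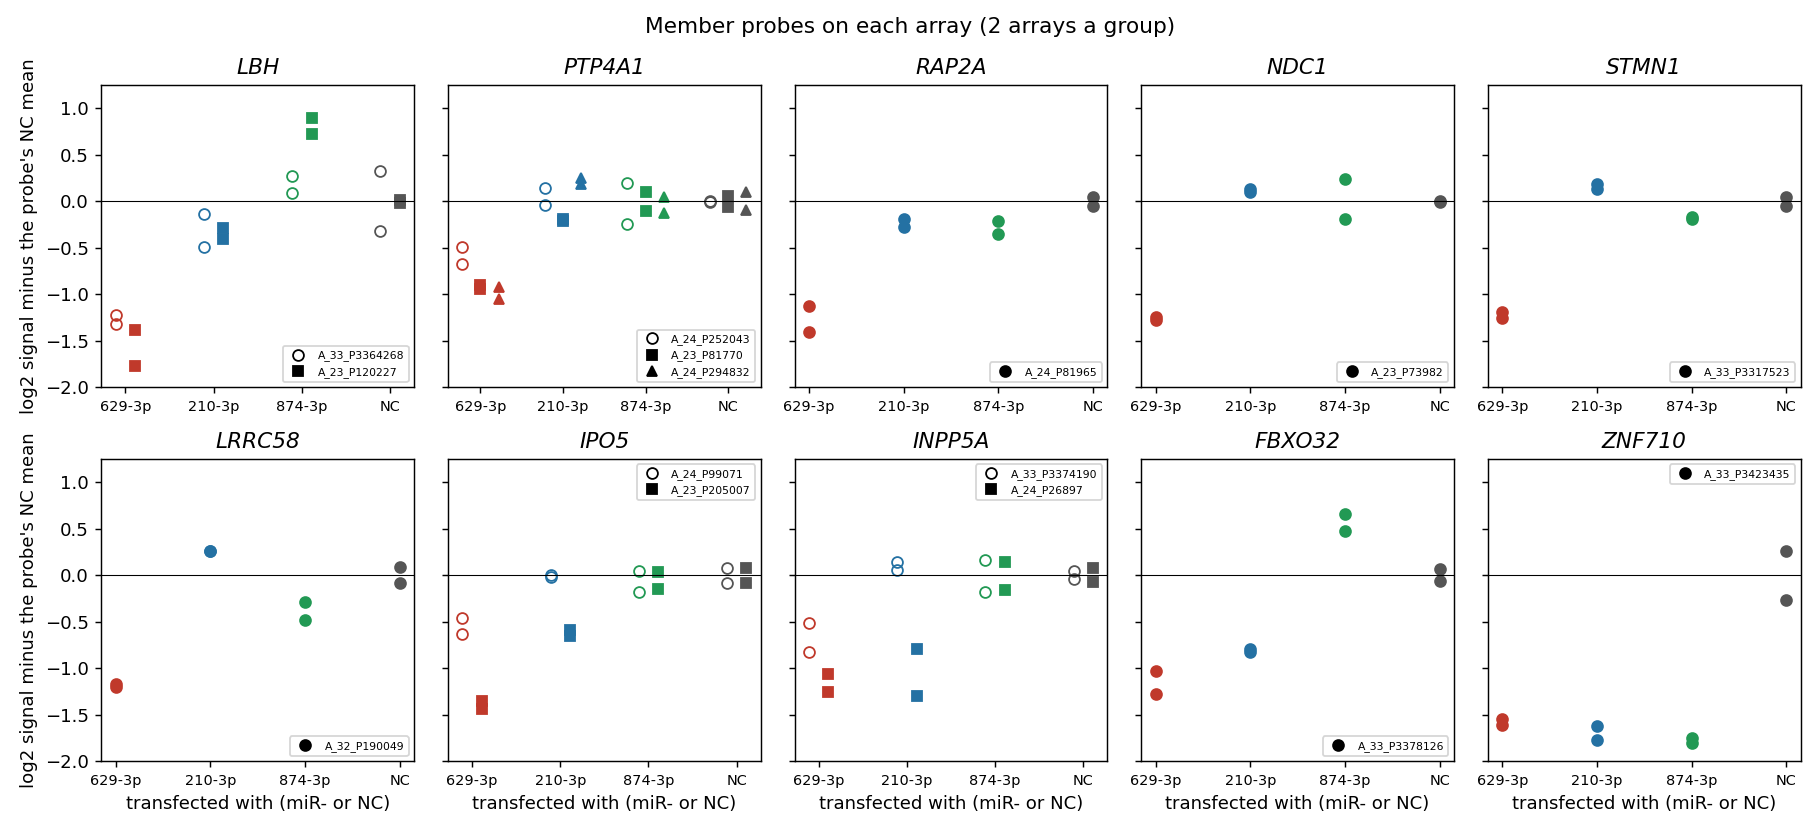
Each panel is 1 gene and each point 1 array, with the log2 signal of a probe minus that probe's NC mean on the vertical axis and the transfected RNA on the horizontal axis. Marker shapes are different probes of a gene. The miR-629-3p points lie below the NC points in every panel, the ZNF710 points of all 3 mimics lie together, and the miR-874-3p points lie highest for FBXO32 and for LBH probe A_23_P120227.

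NDC1 and IPO5 belong to traffic through the nuclear envelope. NDC1 is a membrane protein that anchors nuclear pore complexes. Its probe A_23_P73982 (chromosome 1, 54233479 to 54233538, minus strand), which holds the 7-base match shown above, read 2.88 and 2.93 on the miR-629-3p arrays. The values were 4.30 and 4.27 after miR-210-3p, 4.40 and 3.97 after miR-874-3p, and 4.16 and 4.17 after NC. Both miR-629-3p arrays thus lay more than 1 below the other 6, among which the miR-874-3p arrays spanned those of miR-210-3p and NC. The log2 difference from NC was -1.26 ± 0.14 (SE, n = 2 arrays a group) for miR-629-3p, 0.12 ± 0.14 for miR-210-3p and 0.02 ± 0.14 for miR-874-3p.

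IPO5 is an importin, a carrier that takes ribosomal proteins and other cargo into the nucleus, and it has 2 probes on one transcript on chromosome 13. The one nearer the 5′ end, A_24_P99071 (98671921 to 98671980, plus strand), read 3.10 and 3.28 after miR-629-3p, 3.71 and 3.74 after miR-210-3p, 3.78 and 3.56 after miR-874-3p, and 3.65 and 3.82 after NC. The one nearer the 3′ end, A_23_P205007 (98676214 to 98676273), read 1.64 and 1.73, then 2.43 and 2.49, then 3.12 and 2.94, and 3.01 and 3.16 in the same order. At the 5′ probe only the miR-629-3p arrays were apart from the rest, while at the 3′ probe the miR-210-3p arrays also lay below those of miR-874-3p and NC. The log2 differences from NC with miR-629-3p were -0.55 ± 0.12 and -1.40 ± 0.10, and with miR-210-3p they were -0.01 ± 0.12 and -0.62 ± 0.10.

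RAP2A and PTP4A1 act in signalling at the cell membrane. RAP2A is a small GTPase of the Ras family that acts on the cytoskeleton through kinases such as TNIK. Its probe A_24_P81965 (chromosome 13, 98119444 to 98119503, plus strand) read -1.56 and -1.83 after miR-629-3p, -0.62 and -0.71 after miR-210-3p, -0.78 and -0.64 after miR-874-3p, and -0.38 and -0.48 after NC. The NC arrays were highest, the arrays of the other mimics overlapped just below them, and the miR-629-3p arrays were lowest. The log2 differences from NC were -1.27 for miR-629-3p, -0.23 for miR-210-3p and -0.28 for miR-874-3p, each ± 0.12. With normexp background correction the miR-629-3p value became -0.45.

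PTP4A1 is a prenylated tyrosine phosphatase linked to cell growth and migration, and it was read by 3 probes along one transcript on chromosome 6. From 5′ to 3′, A_24_P252043 (64288845 to 64288904, plus strand) read -1.02 and -0.83 after miR-629-3p and -0.35 and -0.34 after NC. A_23_P81770 (64291197 to 64291256) read 4.16 and 4.11 against 5.00 and 5.12, and A_24_P294832 (64292789 to 64292848) read 1.31 and 1.44 against 2.27 and 2.46. All 3 probes were lower on both miR-629-3p arrays than on any other array. The log2 differences from NC with miR-629-3p were -0.59 ± 0.16, -0.92 ± 0.10 and -0.99 ± 0.11. With miR-210-3p they were 0.05, -0.20 and 0.22, and with miR-874-3p none of the 3 was further from NC than -0.04.

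STMN1 encodes stathmin, which binds tubulin and destabilises microtubules. Its bright probe A_33_P3317523 (chromosome 1, 26227232 to 26227291, minus strand) read 5.56 and 5.49 after miR-629-3p, 6.88 and 6.94 after miR-210-3p, 6.58 and 6.56 after miR-874-3p, and 6.70 and 6.80 after NC. The 4 groups did not overlap, and the miR-629-3p arrays were the lowest by about 1. The log2 difference of miR-629-3p from NC was -1.23 ± 0.08. The other STMN1 probes are assigned to a different transcript and lie 15797 and 15931 bases away on the genome; neither was above background on both arrays of any group, so STMN1 rests on 1 probe here.

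FBXO32 and INPP5A turn over other molecules. FBXO32, also known as atrogin-1, is the substrate-binding part of a ubiquitin ligase best known from muscle wasting. Its 1 probe, A_33_P3378126 on chromosome 8, read 3.19 and 2.94 after miR-629-3p, 3.39 and 3.41 after miR-210-3p, 4.69 and 4.87 after miR-874-3p, and 4.14 and 4.28 after NC. The 4 groups did not overlap, and NC stood between miR-210-3p below and miR-874-3p above. Relative to NC the log2 differences were -1.15 for miR-629-3p, -0.81 for miR-210-3p and 0.57 for miR-874-3p, each ± 0.12.

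INPP5A is a phosphatase that ends inositol trisphosphate signalling by removing the 5-phosphate, and its 2 probes on chromosome 10 lie 1743 bases apart on the transcript and 85088 bases apart on the genome. The 5′ one, A_33_P3374190 (134511363 to 134511422, plus strand), read -1.80 and -1.48 after miR-629-3p, -0.92 and -0.83 after miR-210-3p, -0.81 and -1.15 after miR-874-3p, and -0.93 and -1.02 after NC. The 3′ one, A_24_P26897 (134596451 to 134596510), read 1.62 and 1.42, then 1.38 and 1.89, then 2.82 and 2.52, and 2.60 and 2.75. The miR-210-3p arrays thus stood with miR-874-3p and NC at the 5′ probe, and with miR-629-3p at the 3′ probe. With miR-629-3p the log2 differences from NC were -0.67 ± 0.16 and -1.16 ± 0.20, and with miR-210-3p they were 0.10 ± 0.16 and -1.04 ± 0.20.

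LBH and ZNF710 act, or are thought to act, in the nucleus. LBH is a transcription cofactor of limb bud and heart development that is also tied to Wnt signalling in epithelium. Its 3′ probe A_23_P120227 (chromosome 2, 30482471 to 30482530, plus strand) read -2.04 and -1.65 after miR-629-3p, -0.66 and -0.55 after miR-210-3p, 0.46 and 0.63 after miR-874-3p, and -0.25 and -0.28 after NC. Again no groups overlapped, with miR-629-3p lowest and miR-874-3p highest. From NC they differed by -1.58, -0.35 and 0.81 (log2, each ± 0.15), and the first became -0.69 with normexp background correction. The dimmer probe A_33_P3364268 (30480566 to 30480625) was well above background on 0 miR-629-3p arrays and 1 of 2 NC arrays. It passed only through miR-210-3p and miR-874-3p. With miR-629-3p it was at least 1.67-fold lower than with miR-210-3p and at least 2.36-fold lower than with miR-874-3p. These bounds set a miR-629-3p array at the lowest signal that was well above background on it, or at the probe's own signal where that was higher. Against NC the same setting gave 2.08-fold lower. That is not a bound, since the NC array that was not well above background entered at its measured signal. The measured means were -3.88 with miR-629-3p and -2.61 with NC.

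ZNF710 encodes a zinc finger protein. Its probe A_33_P3423435 (chromosome 15, 90623966 to 90624025, plus strand) read -2.12 and -2.19 after miR-629-3p, -2.35 and -2.19 after miR-210-3p, -2.32 and -2.38 after miR-874-3p, and -0.84 and -0.31 after NC. All 6 mimic arrays lay together, and the NC arrays stood above them and apart from each other. In the same order the log2 differences from NC were -1.58, -1.69 and -1.77, each ± 0.18. With normexp background correction the first value became -0.59. ZNF710 was the only member whose mean with miR-629-3p lay above those with both other mimics. At INPP5A A_24_P26897 the miR-629-3p arrays were not lower than those of miR-210-3p either, since they overlapped.

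LRRC58 is a protein with leucine-rich repeats. Its probe A_32_P190049 (chromosome 3, 120044323 to 120044380, minus strand) read 0.05 and 0.03 after miR-629-3p, 1.49 and 1.49 after miR-210-3p, 0.94 and 0.75 after miR-874-3p, and 1.14 and 1.31 after NC. No groups overlapped, with miR-210-3p highest and miR-629-3p lowest. In log2 terms the differences from NC were -1.18, 0.26 and -0.38, each ± 0.10. With normexp background correction the first of these became -0.81.

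**Figure D2:**
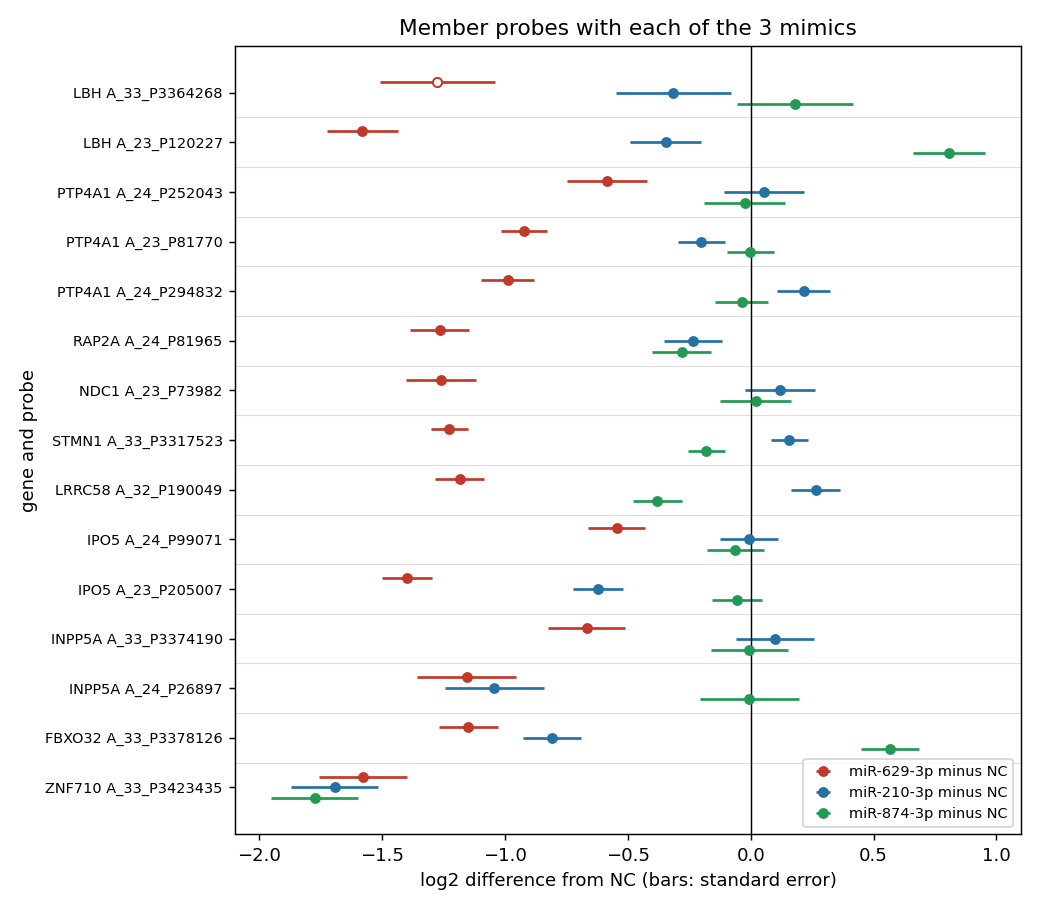
Log2 differences from NC are on the horizontal axis for the 15 probes that passed, listed by gene on the vertical axis, with 1 point per mimic and bars of 1 standard error. The open point of LBH A_33_P3364268 is drawn at its measured value, but the probe was too dim on both miR-629-3p arrays and 1 NC array to measure the difference. The miR-629-3p points run from -1.58 to -0.55, while those of miR-210-3p run from -1.69 to 0.26 and those of miR-874-3p from -1.77 to 0.81.

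Side by side, the 3 mimics share the NC arrays, so their differences are given without a test of likeness. With miR-210-3p the median of the 15 probes was -0.20 (range -1.69 to 0.26) and 3 were lower than NC by at least 0.81, beside 2.66% of all probes. Those were INPP5A A_24_P26897, FBXO32 and ZNF710. With miR-874-3p the median was -0.02 (range -1.77 to 0.81) and 1 probe, ZNF710, was lower by at least 0.81, beside 1.66% of all probes. Set against the other mimics in place of NC, miR-629-3p was lower on both arrays at 13 of 15 probes against miR-210-3p (37.7% of all probes) and at 14 of 15 against miR-874-3p (26.5%). Lower by at least 0.81 were 7 of 15 against miR-210-3p (4.72% of all probes), a pair of groups that shares slide row 1, and 10 of 15 against miR-874-3p (4.28%). The exceptions to the first count were ZNF710 and INPP5A A_24_P26897, and ZNF710 was the exception to the other. LBH A_33_P3364268 entered the counts against the other mimics at its measured value.

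Several probes of a gene were tested for LBH, PTP4A1, IPO5 and INPP5A. With miR-629-3p all probes of each gene lay below NC, and the highest and lowest log2 differences within a gene were 0.40 apart for PTP4A1, 0.49 for INPP5A and 0.85 for IPO5. For LBH no distance is given, since A_33_P3364268 was too dim there to measure the difference. Over all 4702 gene names with at least 2 tested probes, the median distance was 0.25, 7.44% lay over 1 apart and in 64.7% all probes had the same sign. In PTP4A1, IPO5 and INPP5A the most negative probe was the one nearest the 3′ end of the transcript. Over the 3066 gene and transcript pairs of the array with several tested probes at different positions, that was so in 44.7%, and in 49.7% of the 987 whose probes were all lower. With 3 genes, chosen by the same contrast, this is a description.

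With miR-210-3p the INPP5A probes lay 1.14 apart with opposite signs, the IPO5 probes 0.62, the PTP4A1 probes 0.42 with mixed signs and the LBH probes 0.03, of which A_33_P3364268 was well above background on 1 of 2 NC arrays. The median over all names was 0.24, with 6.91% over 1 apart. With miR-874-3p the INPP5A, IPO5 and PTP4A1 probes lay at most 0.03 apart, and the LBH probes 0.63 apart. Within each array, the 3′ probe of IPO5 minus its 5′ probe was -1.46 and -1.55 after miR-629-3p, -1.29 and -1.25 after miR-210-3p, -0.66 and -0.63 after miR-874-3p, and -0.65 and -0.65 after NC. That ratio was thus lower on all 4 arrays of slide row 1 than on the 4 of row 2. For INPP5A the same quantity was 3.42 and 2.91, 2.30 and 2.72, 3.63 and 3.67, and 3.54 and 3.77, again lower on the 4 arrays of row 1. A ratio within an array shows that the probes differed unequally between these groups. Slide row and transfection cannot be told apart in it.

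**Figure D3:**
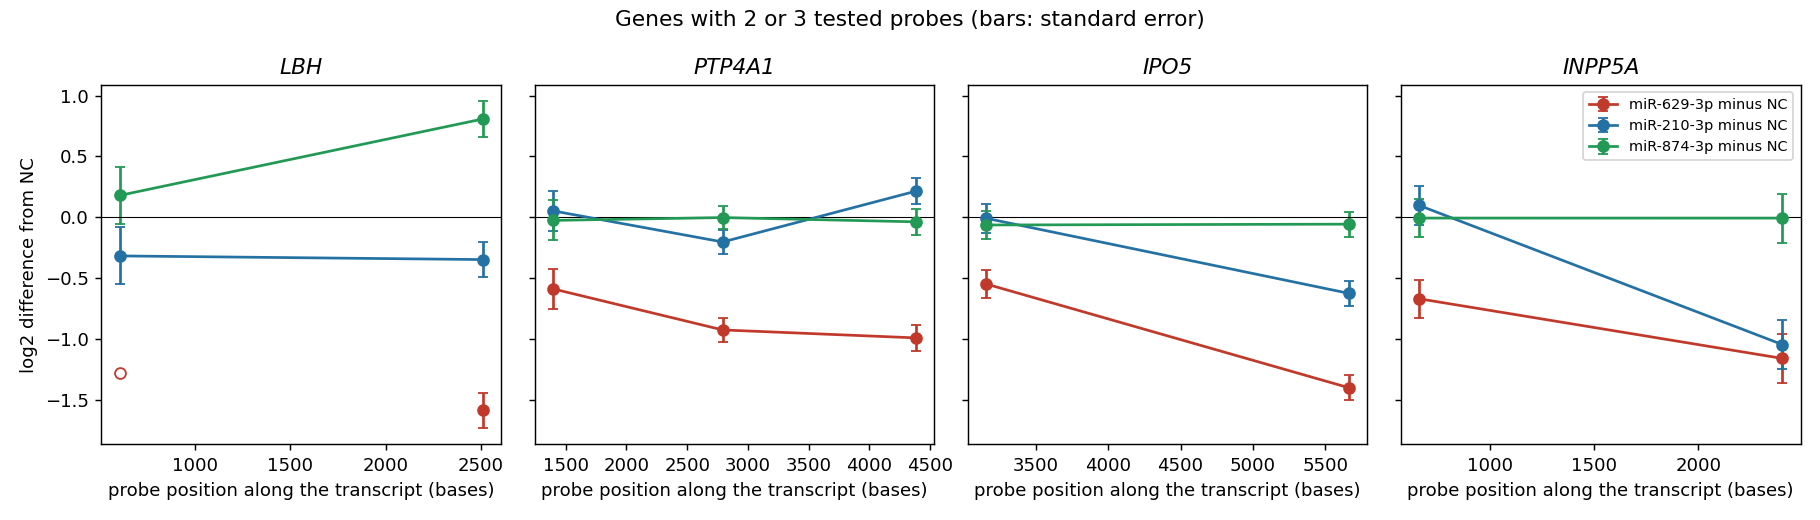
Each panel is 1 gene with 2 or 3 tested probes, with the probe's position along the transcript in bases on the horizontal axis, the log2 difference from NC on the vertical axis, 1 line per mimic and bars of 1 standard error. The open, unconnected point for LBH is drawn at its measured value, but the probe was too dim on both miR-629-3p arrays and 1 NC array to measure the difference. The miR-629-3p line falls from 5′ to 3′ for PTP4A1, IPO5 and INPP5A, and the miR-210-3p line falls from 0.10 to -1.04 for INPP5A and from -0.01 to -0.62 for IPO5.

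Over the 8 arrays the levels of 2 probes of a gene went together with a Pearson r of 0.93 for the LBH pair (with dim values on 3 arrays), 0.89 to 0.92 for the PTP4A1 pairs, 0.86 for IPO5 and 0.49 for INPP5A. These correlations describe 4 groups of 2 arrays, whose group means make up most of the spread.

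The difference between miR-210-3p and miR-874-3p is taken over arrays that did not choose the genes, and asks whether the members also differ between these groups. The miR-210-3p arrays were in slide row 1 and the miR-874-3p arrays in row 2, so mimic and row cannot be told apart in it. The spread in the fit is not independent of that choice, since it is pooled over all 8 arrays, those of miR-629-3p and NC included. FBXO32, LBH A_23_P120227, INPP5A A_24_P26897 and IPO5 A_23_P205007 were lower with miR-210-3p, and LRRC58 was higher. The second probes gave -0.50 for LBH, 0.10 for INPP5A and 0.06 for IPO5, so the probes of INPP5A and of IPO5 do not share a direction. In the limma fit on all 8 arrays, 5 of the 15 member probes passed an adjusted p of 0.05, beside 8.57% of all probes tested. The log2 difference was -1.38 ± 0.12 for FBXO32 (adjusted p = 0.00659), -1.15 ± 0.15 for LBH A_23_P120227 (0.015), 0.64 ± 0.10 for LRRC58 (0.0242), -0.57 ± 0.10 for IPO5 A_23_P205007 (0.0332) and -1.04 ± 0.20 for INPP5A A_24_P26897 (0.0387). At each of these the 2 arrays of one mimic lay beyond both arrays of the other, which is usual for probes past such a threshold. Both miR-210-3p arrays lay below both miR-874-3p arrays at 6 of the 15 member probes, beside 21.9% of all probes tested. STMN1 A_33_P3317523, at 0.34 ± 0.08, did not pass (adjusted p = 0.052). The other 9 probes lay between -0.50 and 0.25, with adjusted p-values from 0.202 to 0.84, among them the second probes of LBH, IPO5 and INPP5A, all 3 of PTP4A1, RAP2A, NDC1 and ZNF710. Over the 15 the median was 0.06, the same as the 0.06 over all probes.

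The count of 5 depends on how the spread is estimated. In a limma fit of these 2 groups alone, which leaves out the arrays that chose the genes, 0 of the 15 passed, beside 0.136% of all probes. At an unadjusted p of 0.05, 6 member probes passed in the limma fit on all arrays (27.5% of all probes) and 5 in the methods' t-test (17% of all probes). After adjustment 0 passed the methods' t-test, beside 0.011% of all probes. FBXO32 passed with each of the 8 arrays left out in turn and under 11 of 13 other settings, whereas INPP5A and IPO5 passed with 1 of the 8 left out. The count was 2 without either miR-629-3p array or without miR-210-3p replicate 2, 1 without miR-210-3p replicate 1, and 3 without miR-874-3p replicate 1 or either NC array. No left-out array and no other setting turned the direction of a called probe.

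**Figure D4:**
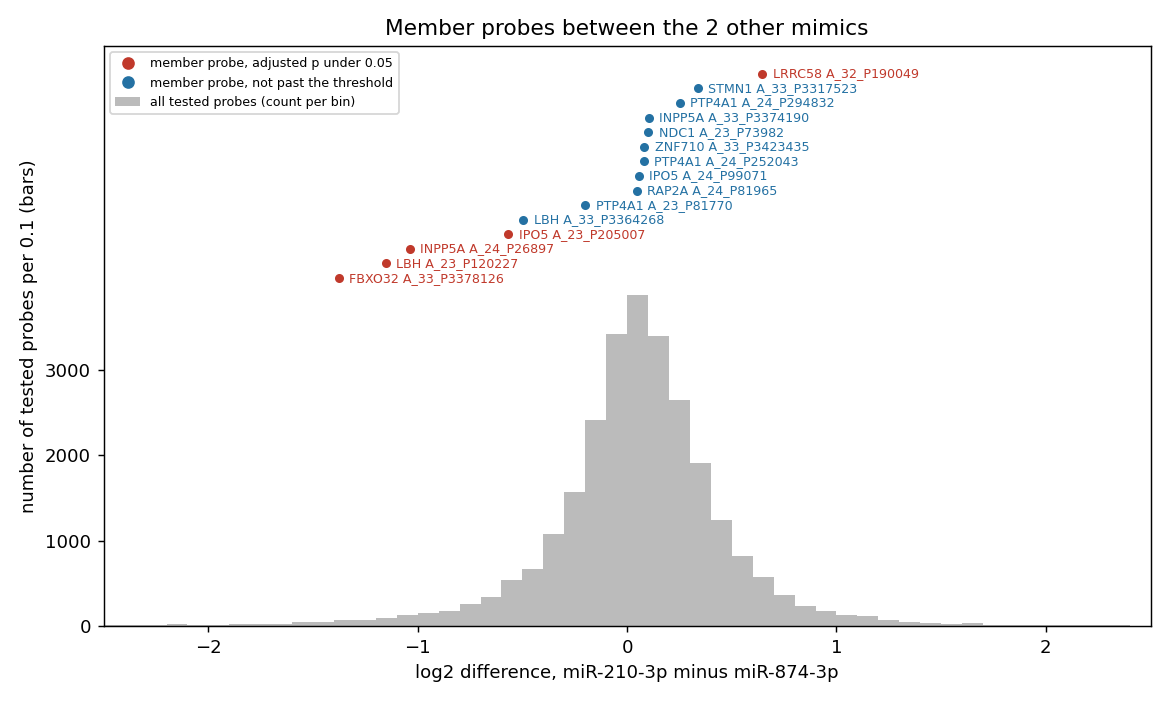
Grey bars count all 27303 probes tested by their log2 difference of miR-210-3p minus miR-874-3p, on the horizontal axis in bins of 0.1, and points above them place the 15 member probes, with height used only to separate the names. Red points (5 of 15) passed the adjusted p in limma, from FBXO32 at -1.38 to LRRC58 at 0.64.

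Whether probes of one gene moved differently between these 2 mimics was tested over all 4702 names with diffSplice of limma, a test chosen after the probe values were seen. It called 3.57% of the names, and here too mimic and slide row cannot be told apart. Of the member genes, INPP5A lay on the threshold (adjusted p = 0.0499), IPO5 just outside it (0.0597), and LBH (0.296) and PTP4A1 (0.378) further away. INPP5A was no longer called after centring on the median, with the authors' deposited values or with any 1 array left out.

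Relatives and partners of the members were followed as a list written from general knowledge. It holds the other PTP4A phosphatases, the other RAP2 and RAP1 proteins and RAP2 effector kinases, pore proteins around NDC1, the other stathmins, other importins, inositol phosphatases with inositol trisphosphate receptors and kinases, and partners of FBXO32. Of its 52 genes, 48 had a tested probe, 68 probes in all. With miR-629-3p 4 of the 68 were lower than NC in limma (background 6.38%) and 4 higher (8.85%), with miR-210-3p 5 were lower (1.92%) and 2 higher (3.72%). With miR-874-3p 0 passed in limma, where 0.161% of all probes were lower and 0.19% higher, and 6 passed an unadjusted p of 0.05, as 15.7% of all probes did. The methods' t-test called 0 of the 68 after adjustment and 0% of all probes, so it bears on no gene here. The shares with miR-629-3p are near their background.

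Among the inositol phosphate genes, INPP5B, another 5-phosphatase, read -1.22 and -1.13 after miR-629-3p, against -0.34 and -0.26 after NC. Both miR-629-3p arrays lay below the other 6, and the log2 difference was -0.87 ± 0.08 (adjusted p = 0.00633). ITPR1, an inositol trisphosphate receptor that releases calcium, rose with miR-629-3p by 0.95 ± 0.07 (adjusted p = 0.0042) and with miR-210-3p by 0.59 ± 0.07 (0.0196). It read -0.75 and -0.84 after miR-629-3p, -1.20 and -1.12 after miR-210-3p, -1.62 and -1.61 after miR-874-3p, and -1.76 and -1.73 after NC, with no overlap between groups. ITPKB, an inositol trisphosphate kinase, rose with miR-210-3p at A_24_P119545 by 0.62 ± 0.12 (adjusted p = 0.044), a probe well above background on 5 of 8 arrays, while its other probe gave 0.11 ± 0.14 (0.665).

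Of the importins, TNPO3, which carries splicing factors, fell with miR-210-3p at A_33_P3370132, where it read 2.17 and 2.37 against 3.36 and 3.36 after NC. The log2 difference was -1.09 ± 0.10 (adjusted p = 0.0109), while its other probe, A_33_P3424472, gave 0.00 ± 0.51. IPO4 fell with miR-629-3p by 0.46 ± 0.09 on the log2 scale (adjusted p = 0.031). Among the pore proteins, AAAS (-0.61 ± 0.12, adjusted p = 0.0455) and NUP210 (-0.55 ± 0.10, 0.0389) fell with miR-210-3p.

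MAP4K4, a kinase bound by RAP2, fell with miR-210-3p (-0.67 ± 0.09, adjusted p = 0.0218), as did PTP4A3 at 1 of its 2 probes (-0.61 ± 0.11, 0.0418; the other -0.32 ± 0.10, 0.13). STMN3, a stathmin of neurons, fell with miR-629-3p (-0.52 ± 0.09, adjusted p = 0.0208). The remaining calls, named after their values were seen, were IPO11 lower and INPP5F, ITPKA and SYNJ2 higher with miR-629-3p, each by at most 0.41. Of these, INPP5F has other probes at -0.46 ± 0.14 (adjusted p = 0.0745) and -0.17 ± 0.11 (0.343), and SYNJ2 has one at -0.12 ± 0.11 (0.487), so their probes do not share a direction. PTP4A2, the closest relative of PTP4A1 on the list, gave -0.05 ± 0.07 with miR-629-3p (adjusted p = 0.684), and the probes of RAP2B and RAP2C lay between -0.13 and -0.01. The calls of INPP5B and ITPR1 with miR-629-3p and of TNPO3 with miR-210-3p were made with each of the 8 arrays left out in turn, whereas the other calls, that of ITPR1 with miR-210-3p included, were made with 2 to 4 of the 8. The count with miR-629-3p went from 8 to 2 or 3 without an NC, a miR-210-3p or a miR-629-3p array and to 15 without a miR-874-3p array. That with miR-210-3p went from 7 to 1 or 2 and to 12 in the same way.

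**Figure D5:**
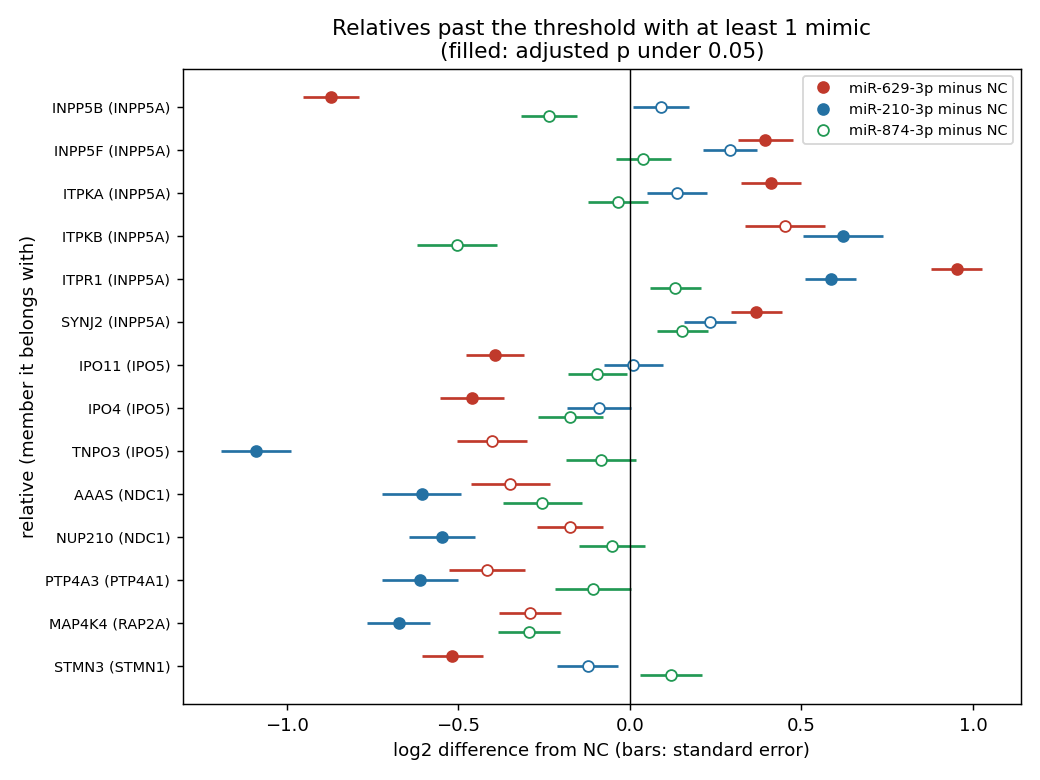
Log2 differences from NC on the horizontal axis for the 14 relatives called with at least 1 mimic, each with the member it was listed for on the vertical axis, 1 point per mimic and bars of 1 standard error. Filled points passed an adjusted p of 0.05 in limma, from TNPO3 with miR-210-3p at -1.09 to ITPR1 with miR-629-3p at 0.95.

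The mean of the 10 members, each by its brightest probe and centred, was correlated over the 8 arrays with the brightest probe of 17391 other gene names. Most like it were DLL1 (Pearson r 0.995), a Notch ligand, TMEM178A (0.993), TPI1P2 (0.993), and PGK1 (0.991) and LDHA (0.99), enzymes of glycolysis. Their log2 differences with miR-629-3p from NC were -1.33 for DLL1 and -0.78 for LDHA, and with miR-210-3p -0.46 and -0.14. For all 5, the values with miR-874-3p lay between -0.19 and 0.03. Of the members themselves, PTP4A1 followed the mean most closely (r 0.989) and ZNF710 least (0.454). Such coefficients arise from 4 group means, 8 arrays and the choice of the best of many names, and are a description.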

How the data were processed

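Total RNA of SAS cells in 4 groups of 2 samples was analysed. Per array, a file of Agilent Feature Extraction 11.5.1.1 (submitters' processing notes) was deposited, in which the authors' scanner software gives each spot's intensity, background-subtracted and not normalized between arrays. They also deposited a table of log2 values, which matched the log2 intensity minus about the array's 75th percentile (100% of probes within 0.05 after an offset of -0.05 to 0.00). The labels name SAS cells, 48 h and a miRNeasy kit, and the paper gives another time, kit and name (SAS/GFP). The dose is that of the paper.

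The log2 processed signal was averaged per probe without outlier spots (87 to 346 of 60901 an array) and control spots, and each array's 75th percentile was subtracted. Probes were kept as the report states and fitted by limma (version 3.58.1, R 4.3.3; lmFit, eBayes) with 1 mean per group and no covariate, over 8 arrays. Residual degrees of freedom were 4 and prior ones 1.72. Errors after ± are standard errors of that fit, and adjusted p-values are Benjamini-Hochberg values over 27303 probes. The fit was tested on simulated data. Nothing says that the 2 samples of a group were separate cultures, so p-values measure only the spread between these samples, which may be technical, and precision is limited by the few arrays.

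The members, lists and tests were chosen with earlier results of these data known. Named are all member probes, at most 10 called relatives by largest change, and the 5 names most like the members' mean. Alternatives were normexp background correction (offset 50), quantile normalization, median centring, the deposited values, keeping outlier spots, flooring at the dimmest detected signal, no filter, detection on all 8 arrays, the brightest probe of each name, only the 2 groups compared, eBayes with trend, a replicate block, the methods' t-test and each array left out. The slide held all arrays, so no block for it could be fitted.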

Additional observations from a re-analysis of the deposited data

How the results depend on the processing

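No result turned its direction under any alternative run. The median log2 difference of the members with miR-629-3p from NC, -1.18, became -0.79 with normexp background correction and lay from -1.24 to -1.10 with 1 array left out. The count lower by at least 0.81, 12, became 7 with normexp and was 12 to 14 with 1 array left out. Genes with probes over 1 apart numbered 0, 1 without a filter on detection and 0 to 2 with 1 array left out (2 without NC replicate 1). In that count the dim LBH A_33_P3364268 entered at its measured value.

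Member probes called between miR-210-3p and miR-874-3p numbered 5, 1 without the filter, 0 with only the 2 groups, 2 with the replicate block, 0 by the methods' t-test and 1 to 4 with 1 array left out. Relatives called with miR-629-3p numbered 8, 14 with normexp, 13 with detection on all 8 arrays, 4 with only the 2 groups, 18 with trend, 2 with the replicate block, 0 by the methods' t-test and 2 to 15 with 1 array left out. With miR-210-3p they numbered 7, 0 without the filter, 11 with detection on all 8 arrays, 0 with only the 2 groups, 13 with trend, 1 with the replicate block, 0 by the methods' t-test and 1 to 12 with 1 array left out. With miR-874-3p they numbered 0, 1 with trend and 0 to 1 with 1 array left out. Member genes whose probes differ by diffSplice, a test added after seeing the data, numbered 1, 3 with normexp, 2 with quantile normalization or detection on all 8 arrays, and 0 with centring, the deposited values, outlier spots kept, no filter, the replicate block or 1 array left out. The cause of these differences was not tested.

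Same-numbered arrays did not deviate together (correlation -0.10 to 0.04), so no pairing by number was seen. With 2 arrays a group this cannot show that the samples were unpaired. A group left with 1 array was assumed to vary like the others. Signal over background limits LBH A_33_P3364268 with miR-629-3p to a bound against the other mimics, gives no bound against NC, and leaves 3 member probes unmeasured.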
